A study of Mus musculus with 49 samples.

Results

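The genes examined here are 9 that encode proteins of the excitatory postsynapse: Dlg4, Dlg2, Dlgap1, Shank1, Shank2, Shank3, Homer1, Nlgn1 and Nrgn. They were taken by symbol from a table of 45252 genes, all 9 were found, and all 9 were among the 18220 genes with enough reads to be tested. The table holds the neocortical RNA of 49 mice from a study of active immunization against TDP-43, the RNA-binding protein that leaves the nucleus and aggregates in amyotrophic lateral sclerosis and frontotemporal lobar degeneration.

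All mice were of the strain C57BL/6J x C3H/HeJ, a mixed background, and carried the tetO-hTDP43∆NLS allele, which encodes a human TDP-43 that lacks the nuclear localization signal. The rNLS8 mice were bigenic. They also carried the NEFH-tTa allele, in which the promoter of the neurofilament heavy chain drives the transactivator in neurons, so that the transgene is expressed once doxycycline leaves the chow. The ctrl-PBS mice were monogenic, with no NEFH-tTa, and received PBS (n = 17, 10 females and 7 males). In them doxycycline was withdrawn as well, so effects of carrying the transactivator and of expressing the transgene cannot be told apart. The rNLS8 mice received PBS (TDP-PBS, n = 10, 4 females and 6 males), peptides 10 and 12, from the glycine-rich region of TDP-43 (TDP-10+12, n = 10, 6 females and 4 males), or peptide 15, which carries phosphorylated serines (TDP-15, n = 12, 5 females and 7 males). Injections began at 8 weeks of age, with 5 before and 1 after induction. Immunized mice received a total of 40 µg of peptide coupled to ovalbumin each time, and PBS mice received PBS in place of the conjugate. Effects of the peptides and of the ovalbumin cannot be told apart against the PBS groups. Doxycycline was withdrawn at 25.5 weeks and cortex was taken 3 weeks later, at 28.5 weeks. Each mouse gave 1 library of about 30 mg of tissue, with no pooling.

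The postsynaptic density is a protein sheet beneath the membrane of the dendritic spine. It holds glutamate receptors opposite the site of transmitter release. Its layers are stacked: adhesion molecules such as neuroligins and glutamate receptors lie in the membrane, membrane-associated guanylate kinases bind their tails, guanylate kinase-associated proteins link these to the SHANK proteins, and SHANK proteins and Homer together form the deep mesh that reaches the cytoskeleton. Neurogranin, the product of Nrgn, is no scaffold itself. It is a small protein of dendrites and spines that binds calmodulin and releases it when calcium rises.

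Libraries held 17775738 to 21033608 counts, which makes 3 counts, the floor used here, equal to 0.143 to 0.169 CPM, the read count of a gene relative to its library total. CPM are given after scaling between libraries by edgeR's TMM factors (0.929 to 1.06). Tardbp, the mouse gene for TDP-43, had 146 ± 9.27 CPM in ctrl-PBS and 118 ± 14.0 CPM in TDP-PBS (SD). The sources used here do not say if transgene reads could be counted on it. Each of 10 neuron markers had counts in every mouse, but so did the markers of striatum and dentate gyrus, so this does not tell neocortex from other brain tissue. Markers of neighbouring tissue were high in single libraries. Markers of the choroid plexus (Ttr, Folr1 and Kl) summed to over 1000 CPM in 4 rNLS8 libraries (TDP-PBS mouse 26, TDP-10+12 mice 51 and 200, and TDP-15 mouse 243) against a median of 21.3 CPM in ctrl-PBS, and Folr1 was at 0 in 1 mouse. Markers of the olfactory bulb summed to over 30 CPM in 6 libraries, of which 2 were ctrl-PBS, while Eomes and Omp of this list were at 0 in up to 6 mice. The tests of the 9 genes were run again without each of these sets of libraries, and no call changed.

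Against ctrl-PBS, 6 of the 9 genes fell in TDP-PBS and 0 rose (quasi-likelihood test of edgeR, p adjusted over all 18220 genes by Benjamini-Hochberg and under 0.05, where SE below is the standard error of a log2 fold change). The genes that fell were Nrgn, Homer1, Shank1, Dlg4, Dlgap1 and Dlg2, and those that did not pass were Nlgn1, Shank2 and Shank3. Among all genes tested, 21.6% were called lower in this comparison and 43.5% in either direction. The median log2 fold change of the 9 genes was −0.27, and that of all genes tested was −0.00039. In TDP-10+12, 6 of 9 were lower against a background of 20% (40.8% in either direction), with a median of −0.30. In TDP-15, 6 of 9 were lower against a background of 23.2% (46.9% in either direction), with a median of −0.29. At an unadjusted p under 0.05 stood 6, 6 and 7 of the 9 genes, against 49.9%, 48.2% and 52.7% of all genes. Scaled to the neuron markers in place of TMM, as described further on, 2, 1 and 3 of the 9 genes were lower in TDP-PBS, TDP-10+12 and TDP-15, and 3 were higher in each. On that scale 4.81%, 3.42% and 5.78% of all genes were lower, and 9800, 11318 and 9865 of 18220 were higher. All of these comparisons use the same ctrl-PBS mice and are not independent of each other. In bulk tissue, fewer neurons and less RNA of a gene per neuron cannot be told apart, and several neuron markers that are not postsynaptic were lower as well, with values given later.

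**Figure D1:**
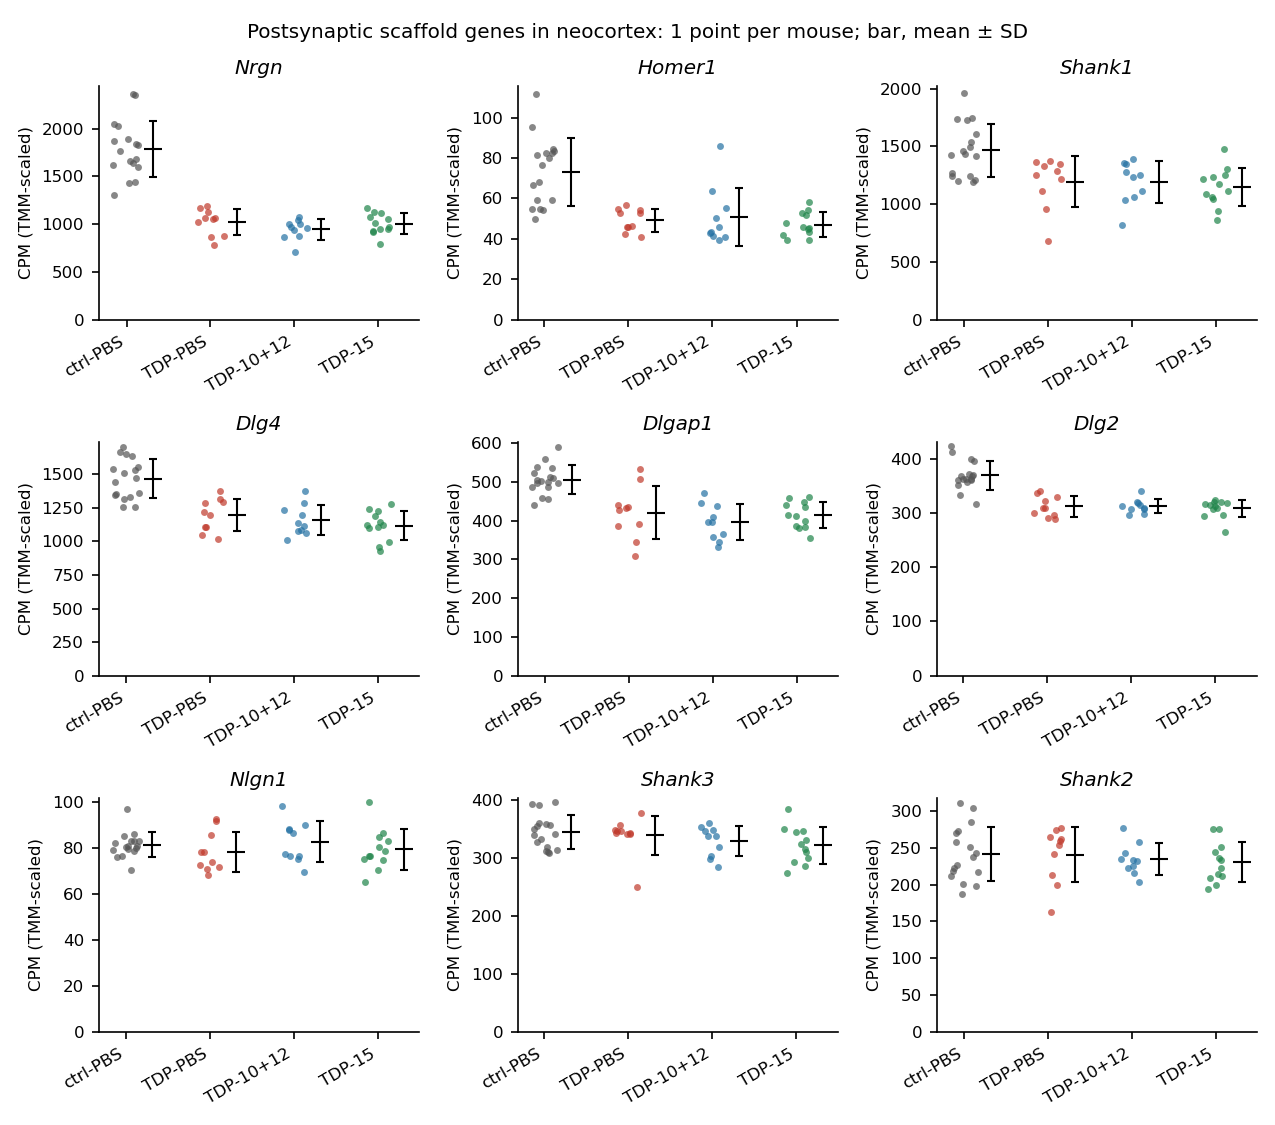
CPM of each gene (vertical axis, from 0, TMM-scaled) by group (horizontal axis), 1 point per mouse, with the mean ± SD beside the points (n = 17, 10, 10 and 12). In the Nrgn panel all 32 rNLS8 mice lie below the lowest ctrl-PBS mouse at 1304 CPM, in the Nlgn1, Shank2 and Shank3 panels the groups overlap, and the single low point of Shank3 is TDP-PBS mouse 26 at 249 CPM.

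Nrgn, on chromosome 9 of GRCm38.p6 (37544493 to 37552745, minus strand), showed the largest change of the 9 genes. Its level ranged from 1304 to 2364 CPM in ctrl-PBS with a median of 1761 CPM, and from 786 to 1193 CPM in TDP-PBS with a median of 1058 CPM. In TDP-10+12 it ranged from 707 to 1070.1 CPM with a median of 966 CPM, and in TDP-15 from 792 to 1168 CPM with a median of 991 CPM. The groups did not overlap: every one of the 32 rNLS8 mice was lower than all 17 ctrl-PBS mice, a separation that 1.64% of the genes tested showed. For TDP-PBS, TDP-10+12 and TDP-15 taken singly, 2.58%, 2.59% and 3.08% of genes lay wholly below ctrl-PBS, and Nrgn was the only 1 of the 9 genes to do so. The log2 fold change was −0.81 in TDP-PBS (SE 0.08, edgeR quasi-likelihood adjusted p = 3e-12), a change of −42.8% with a 95% confidence interval of −48.8% to −36.2%. It was −0.92 in TDP-10+12 and −0.83 in TDP-15 (adjusted p = 7.14e-14 and 1.41e-13). Among all genes tested, this fold change stood at percentile 1.79 in TDP-PBS, counted from the lowest.

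Homer1 encodes the long Homer proteins, which tie metabotropic glutamate receptors and SHANK proteins together, and a short form induced by activity that uncouples them. The gene lies on chromosome 13 (93303757 to 93405129, plus strand), and its 11 annotated coding transcripts share 1 value per mouse in the table, so the long and short forms cannot be told apart here. It had 49.8 to 112 CPM in ctrl-PBS with a median of 76.6 CPM, against 40.7 to 56.7 CPM in TDP-PBS with a median of 49.5 CPM. Levels were 39.7 to 85.8 CPM in TDP-10+12 (median 44.8) and 39.3 to 58.1 CPM in TDP-15 (median 45.7). The ranges overlapped: 19 of 32 rNLS8 mice were under the ctrl-PBS minimum, and 2 of 17 ctrl-PBS mice lay above every rNLS8 mouse. Of the 9 genes Homer1 also varied most within ctrl-PBS, with a coefficient of variation of 23.1%. Its log2 fold change was −0.57 in TDP-PBS (SE 0.11, edgeR quasi-likelihood adjusted p = 2.3e-05), −0.52 in TDP-10+12 and −0.64 in TDP-15 (adjusted p = 9.7e-05 and 9.7e-07). The high value in TDP-10+12 came from mouse 301, which also had the highest Gfap of all mice, at 1133 CPM.

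**Figure D2:**
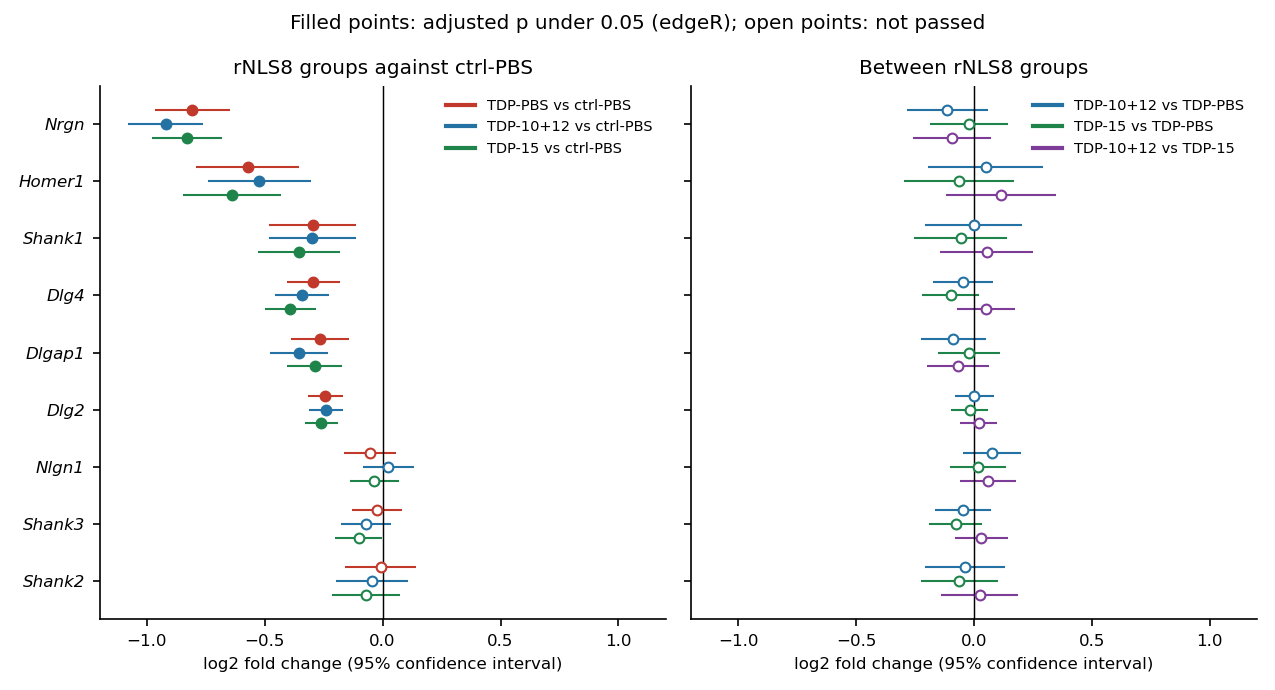
Log2 fold change (horizontal axis) of each gene (vertical axis) with its 95% confidence interval, for the rNLS8 groups against ctrl-PBS (left) and between rNLS8 groups (right); filled points passed an adjusted p of 0.05. Nrgn and Homer1 lie farthest left in the left panel, from −0.92 to −0.52, while every interval in the right panel includes 0.

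Both membrane-associated guanylate kinases fell in each rNLS8 group. Dlg4 encodes PSD-95, the most abundant scaffold of this family at excitatory synapses, and lies on chromosome 11 (70017203 to 70045535, plus strand). It had 1253 to 1700.04 CPM in ctrl-PBS (median 1474), 1019.6 to 1374 CPM in TDP-PBS (median 1208), 1009.6 to 1373 CPM in TDP-10+12 (median 1122) and 926 to 1274 CPM in TDP-15 (median 1122). The ranges overlapped, with 25 of 32 rNLS8 mice under the ctrl-PBS minimum, and 10 of 17 ctrl-PBS mice lay above every rNLS8 mouse. The log2 fold change was −0.29 in TDP-PBS (SE 0.06, edgeR quasi-likelihood adjusted p = 2.86e-05), −0.34 in TDP-10+12 and −0.39 in TDP-15. Dlg2, on chromosome 7 (90476188 to 92449246, plus strand), encodes the related PSD-93. It went from 316 to 423 CPM in ctrl-PBS (median 363) to 288 to 341 CPM in TDP-PBS (median 309.8), 296 to 340.5 CPM in TDP-10+12 (median 311) and 265 to 323 CPM in TDP-15 (median 314). Here 20 of 32 rNLS8 mice were below all ctrl-PBS mice, and the low end of ctrl-PBS was set by mouse 137. With small spread within groups, a log2 fold change of −0.24 had a standard error of 0.04 (adjusted p = 2.79e-07), and values in TDP-10+12 and TDP-15 were −0.24 and −0.26. The log2 ratio of Dlg4 to Dlg2 within a mouse, which no scaling between libraries can change, averaged 1.93 ± 0.20 in TDP-PBS (SD, n = 10) and 1.99 ± 0.17 in ctrl-PBS (SD, n = 17), a difference of −0.05 (two-sided permutation test, p = 0.484, adjusted p = 0.645 over 4 ratios). The ratio was not tested in TDP-10+12 and TDP-15.

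Dlgap1 encodes the guanylate kinase-associated protein that bridges PSD-95 and the SHANK proteins, on chromosome 17 (69969073 to 70821413, plus strand). Its level was 441 to 589 CPM in ctrl-PBS with a median of 502 CPM, and 307 to 533 CPM in TDP-PBS with a median of 429.9 CPM. In TDP-10+12 and TDP-15 it was 332 to 471 CPM (median 397) and 354 to 459.7 CPM (median 413). TDP-PBS was the widest of the groups, with 8 of 10 mice below every ctrl-PBS mouse and 2 inside the ctrl-PBS range. The log2 fold changes were −0.27, −0.35 and −0.29 in TDP-PBS, TDP-10+12 and TDP-15 (edgeR quasi-likelihood adjusted p = 0.000334, 4.87e-06 and 4.51e-05, SE 0.06 in each).

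The SHANK genes, which encode the large proteins of the deep layer, did not move alike. Shank1, on chromosome 7 (44308916 to 44360094, plus strand), had 1190.3 to 1959 CPM in ctrl-PBS (median 1434) and 682 to 1375 CPM in TDP-PBS (median 1272). In TDP-10+12 it had 824 to 1395 CPM (median 1244) and in TDP-15 859.6 to 1476 CPM (median 1145). The groups overlapped over much of their range, with 14 of 32 rNLS8 mice below all ctrl-PBS mice, although 10 of 10 TDP-PBS mice lay below the ctrl-PBS median. Its log2 fold change was −0.30 in TDP-PBS (SE 0.09, edgeR quasi-likelihood adjusted p = 0.00704), −0.30 in TDP-10+12 and −0.35 in TDP-15. The lowest value was that of mouse 26. Leaving out 1 mouse at a time gave fold changes in TDP-PBS from −0.32 to −0.22, with a largest adjusted p of 0.0327.

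Shank2 (chromosome 7, 143978077 to 144426043, plus strand) had 187 to 310.2 CPM in ctrl-PBS and 162 to 277 CPM in TDP-PBS, with medians of 237 and 257 CPM. Shank3 (chromosome 15, 89493013 to 89560261, plus strand) had 309 to 396 CPM in ctrl-PBS and 249 to 377 CPM in TDP-PBS, with medians of 341 and 345 CPM. Neither separated the groups, and the lowest value of both genes in TDP-PBS was again that of mouse 26. Their log2 fold changes in TDP-PBS were −0.01 for Shank2 (95% confidence interval −0.16 to 0.14, adjusted p = 0.942) and −0.02 for Shank3 (−0.13 to 0.08, adjusted p = 0.737). In TDP-15 Shank3 was at −0.10 (adjusted p = 0.0898), where leaving out TDP-15 mouse 59 gave −0.13 (adjusted p = 0.0302).

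Ratios within a mouse showed the difference between these paralogs directly. They were chosen after the values above had been seen. The log2 ratio of Shank1 to Shank2 was 2.30 ± 0.13 in TDP-PBS (SD, n = 10) and 2.60 ± 0.14 in ctrl-PBS (SD, n = 17), a difference of −0.30 (two-sided permutation test, p = 2e-05, adjusted p = 8e-05 over 4 ratios). That of Shank1 to Shank3 differed by −0.28 (permutation test, adjusted p = 0.00088), and that of Shank2 to Shank3 differed by 0.02 (permutation test, adjusted p = 0.802). Without mouse 26 the first of these ratios differed by −0.27 and the second by −0.24 (permutation test, adjusted p = 0.00032 and 0.00294).

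Nlgn1 encodes a postsynaptic adhesion molecule that binds presynaptic neurexins and, inside the cell, PSD-95. It lies on chromosome 3 (25421808 to 26332866, minus strand). Its level was 70.3 to 96.5 CPM in ctrl-PBS (median 80.8), 68.2 to 92.3 CPM in TDP-PBS (median 75.8), 69.2 to 98.3 CPM in TDP-10+12 (median 81.8) and 64.9 to 99.8 CPM in TDP-15 (median 77.4). The ranges of all groups overlapped. The log2 fold change of −0.05 in TDP-PBS had a 95% confidence interval of −0.16 to 0.06 (edgeR quasi-likelihood adjusted p = 0.456), and the values in TDP-10+12 and TDP-15 were 0.02 and −0.04.

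Exons of other annotated genes overlap those of 5 of the 9 genes, namely Dlg2, Shank1, Shank3, Dlgap1 and Nlgn1, mostly on the opposite strand. The strand setting of the counting is not given in the sources used here, so reads of such partners may be included in these values.

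The order of abundance was read per length, as CPM per kb of the longest annotated coding transcript. In ctrl-PBS Nrgn led with 1229 ± 203 CPM per kb, followed by Dlg4 with 232 ± 23.2 and Shank1 with 149 ± 23.5 CPM per kb (SD, n = 17). Dlgap1 (70.5 CPM per kb), Dlg2 (47.3) and Shank3 (46.9) lay in the middle, and Shank2 (26.9), Homer1 (12.8) and Nlgn1 (6.87) at the low end. Dlg2 and Shank3 did not differ beyond their spread, and the ranges of Dlg4 and Shank1 touched. In TDP-PBS Nrgn led again with 703 ± 94.5 CPM per kb (SD, n = 10). There Shank3 (46.1 CPM per kb) stood above Dlg2 (39.9), with overlapping ranges, and the ranges of Homer1 and Nlgn1, at 8.62 ± 0.986 and 6.62 ± 0.735 CPM per kb, overlapped as well.

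RefSeq on GRCm38.p6 gave windows from 250 bases before to 50 bases after a transcript start for 7 of the 9 genes. Those of Nrgn and, from 2 windows, the one at the first start of Homer1, the genes with the largest falls, and of Shank3, which did not pass, are shown with each match to the GC box GGGCGG, on either strand, in capitals. They are chr9:37552696-37552995 on the minus strand, chr13:93303507-93303806 on the plus strand and chr15:89499358-89499657 on the plus strand, each written 5′ to 3′ along the gene.
Nrgn: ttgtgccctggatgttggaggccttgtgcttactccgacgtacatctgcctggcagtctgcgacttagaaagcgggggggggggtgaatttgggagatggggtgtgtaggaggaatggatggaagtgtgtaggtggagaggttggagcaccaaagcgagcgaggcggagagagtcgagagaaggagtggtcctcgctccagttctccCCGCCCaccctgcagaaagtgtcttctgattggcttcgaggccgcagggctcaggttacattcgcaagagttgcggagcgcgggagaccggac
Homer1: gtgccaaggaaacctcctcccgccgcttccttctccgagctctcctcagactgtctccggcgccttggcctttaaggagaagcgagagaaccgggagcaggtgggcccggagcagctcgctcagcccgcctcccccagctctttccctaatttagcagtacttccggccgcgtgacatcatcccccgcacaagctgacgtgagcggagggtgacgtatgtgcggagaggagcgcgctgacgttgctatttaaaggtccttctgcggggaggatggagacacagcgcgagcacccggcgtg
Shank3: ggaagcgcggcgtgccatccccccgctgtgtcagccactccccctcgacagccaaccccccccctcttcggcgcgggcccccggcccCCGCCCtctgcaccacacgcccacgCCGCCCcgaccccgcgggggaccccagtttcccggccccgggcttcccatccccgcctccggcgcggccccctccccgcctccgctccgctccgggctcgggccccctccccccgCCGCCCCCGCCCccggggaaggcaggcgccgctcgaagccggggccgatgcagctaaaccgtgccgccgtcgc
The Nrgn window holds 1 GC box and 17 CpG dinucleotides, the Homer1 window shown 0 and 26 (its other window 0 and 7), and the Shank3 window 4 and 40, with 81% of its bases G or C. Of 32851 promoter windows of this length, 35.7% hold the GC box, and the median window holds 7 CpG. The CRE sequence TGACGTCA, on either strand, was in none of the 14 windows of these 7 genes and in 1.79% of all windows. TATAAA on either strand was in 1 window of Dlg2 and in 13.6% of all windows. These matches describe the letters of the windows and are not binding sites.

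The genes around the scaffold were described by lists. Paralogs of the 9 genes, other postsynaptic density proteins, trans-synaptic adhesion molecules, receptors and channels held by the scaffold and proteins of the inhibitory postsynapse made 80 genes, all tested. In TDP-PBS 39 of them were lower and 8 higher than in ctrl-PBS, with a median log2 fold change of −0.13. In TDP-10+12 the counts were 40 lower and 9 higher (median −0.12), and in TDP-15 41 lower and 6 higher (median −0.16). Among all genes tested, 21.6% were lower and 21.9% higher in TDP-PBS, 20% and 20.8% in TDP-10+12, and 23.2% and 23.6% in TDP-15. The counts of each list below, and of the cell markers further on, stand beside these shares. The lists overlap in Slitrk3 and Nlgn2.

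Of 24 other postsynaptic density proteins, 16 were lower and 0 higher in TDP-PBS, with a median of −0.24. In TDP-10+12 1 was higher, Grip1, at 0.17 (edgeR quasi-likelihood adjusted p = 0.0313). Agap2, which encodes a GTPase-activating protein for Arf GTPases, went from 1223 ± 68.0 CPM in ctrl-PBS to 831 ± 64.2 CPM in TDP-PBS, a log2 fold change of −0.56 (SE 0.04, edgeR quasi-likelihood adjusted p = 5.34e-16). Camk2b, the beta subunit of the calcium/calmodulin-dependent kinase of spines, fell by 0.40 on the log2 scale (adjusted p = 3.87e-13), and Abi2, an actin regulator of the WAVE complex, fell by 0.44 (adjusted p = 6.9e-12).

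Of the 17 genes on the receptor list, which holds receptors, auxiliary subunits and the potassium channel gene Kcnj10, 6 were lower and 0 higher in TDP-PBS, with a median of −0.07. In TDP-10+12 1 was higher, Shisa6, at 0.40 (edgeR quasi-likelihood adjusted p = 0.00182). Grip1 and Shisa6 are named after their values were seen. The AMPA receptor subunit gene Gria3 had 195 ± 14.0 CPM in ctrl-PBS and 123 ± 7.96 CPM in TDP-PBS, a log2 fold change of −0.66 (SE 0.05, edgeR quasi-likelihood adjusted p = 2.36e-15). Gria4, of the same family, was at −0.38, and Cacng3, which encodes an auxiliary subunit of AMPA receptors, also at −0.38 (adjusted p = 2.42e-07 and 2e-06).

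Paralogs of the 9 genes went both ways, with 4 of 9 higher and 4 lower. Dlg3 and Dlg1, of the PSD-95 family, fell by 0.35 and 0.37 on the log2 scale, and Dlgap4 fell by 0.23 (edgeR quasi-likelihood adjusted p = 1.51e-10, 2.69e-10 and 9.31e-06). Nlgn3, Homer3 and Dlgap3 were higher, at 0.19, 0.30 and 0.18 (adjusted p = 0.00221, 0.00322 and 0.0067). In TDP-15 Dlgap3 and Nlgn3 did not pass (0.08 and 0.10, adjusted p = 0.207 and 0.0947). Nlgn2, also higher in TDP-PBS, did not pass in TDP-10+12 (0.08, adjusted p = 0.183). Of the 9 paralogs, 3 were higher and 4 lower in TDP-10+12, and 2 were higher and 4 lower in TDP-15. Homer2, named here after its values were seen, was lower like Homer1, at −0.36 in TDP-PBS (adjusted p = 0.000386). Homer3 is scarce in this tissue, with 8.62 ± 1.0 CPM in ctrl-PBS (SD, n = 17) and 10.6 ± 1.33 CPM in TDP-PBS (SD, n = 10).

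Of the 22 adhesion genes, 10 were lower and 3 higher, with a median of −0.13. The lower ones included Slitrk1 (−0.40) and, on the presynaptic side, Nrxn3 (−0.31), which encodes a binding partner of neuroligins (edgeR quasi-likelihood adjusted p = 1.2e-09 and 2.16e-08). Lrrc4b (0.23), Slitrk3 (0.18) and Lrfn2 (0.32) were higher (adjusted p = 6.8e-05, 0.000544 and 0.00113). At the inhibitory postsynapse 3 of 10 genes were lower and 3 higher, near the shares of all genes, with a median of 0.03. The higher ones were Slitrk3, Nlgn2 (0.14) and Lhfpl4 (0.14), with edgeR quasi-likelihood adjusted p = 0.000544, 0.0153 and 0.0184.

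**Figure D3:**
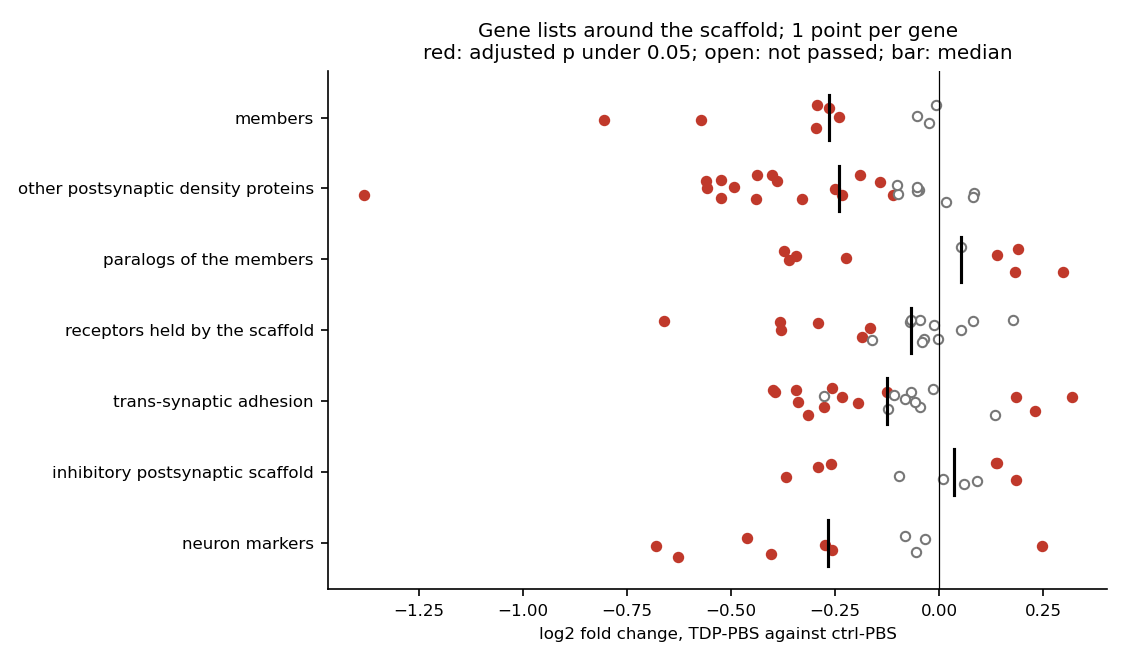
Log2 fold change in TDP-PBS against ctrl-PBS (horizontal axis) of each gene of a list (vertical axis), 1 point per gene, red where the adjusted p was under 0.05, with a bar at the list's median. The 9 members (median −0.27) and the other postsynaptic density proteins (−0.24) lie mostly left of 0, while the paralogs (0.05) and the inhibitory postsynapse (0.03) spread to both sides.

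Neuron markers moved with these genes. Of the 10, 6 were lower and 1 higher in TDP-PBS, with a median log2 fold change of −0.27, the same to 2 decimals as that of the 9 members. Snap25 and Syt1, of the presynaptic release machinery, fell by 0.68 and 0.63 on the log2 scale, Rbfox3, the nuclear marker NeuN, was at −0.06, and Slc17a7, the vesicular glutamate transporter of cortical excitatory cells, at −0.03. The summed level of the 10 was 7222 to 9251 CPM in ctrl-PBS, 5414 to 6962 CPM in TDP-PBS, 5705 to 6833 CPM in TDP-10+12 and 5811 to 6854 CPM in TDP-15, without overlap between ctrl-PBS and the rNLS8 groups. Interneuron markers were lower in 4 of 7 and higher in 1, and summed to 893 to 1147 CPM in ctrl-PBS and 749 to 1111 CPM in TDP-PBS. Microglia markers were higher in 5 of 7, with sums of 191 to 223 CPM in ctrl-PBS and 228 to 331 CPM in TDP-PBS. Astrocyte markers were higher in 1 and lower in 2 of 7. None of the markers of these lists was at 0 in any mouse, and their part in the results above was not tested.

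How the 9 genes stood relative to the neuron markers was computed by scaling every library to the geometric mean of the 10 markers in place of TMM, an alternative added after the values had been seen. This raised the median log2 fold change of all genes in TDP-PBS to 0.27, with 9800 genes higher and 876 lower, against 3996 higher and 3932 lower with TMM. On this scale Nrgn remained lower in all 3 rNLS8 groups, at −0.54, −0.59 and −0.56 in TDP-PBS, TDP-10+12 and TDP-15 (edgeR quasi-likelihood adjusted p = 3.7e-11, 2.19e-12 and 1.39e-12). Homer1 was at −0.29, −0.19 and −0.38 (adjusted p = 0.0207, 0.126 and 0.00146). Dlg4, Dlgap1, Shank1 and Dlg2 lay between −0.04 and 0.03 in TDP-PBS and none of them passed there. Shank2, Shank3 and Nlgn1, which did not pass with TMM, were higher at 0.25, 0.24 and 0.21 (adjusted p = 0.000157, 4.69e-05 and 0.00738), under the median of all genes on that scale, so that these calls are no result about the 3 genes.

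No difference between rNLS8 groups was detected in these genes. Between rNLS8 groups 0 of the 9 were called in TDP-10+12 against TDP-PBS, in TDP-15 against TDP-PBS and in TDP-10+12 against TDP-15, beside a background of 0% of all genes in each comparison (edgeR's quasi-likelihood test). At an unadjusted p under 0.05 stood 953, 552 and 1244 of all genes, or 5.23%, 3.03% and 6.83%. Of the 9 genes there were 0 in each comparison with edgeR and with DESeq2, and 0, 1 and 0 with limma-voom. By edgeR the smallest unadjusted p was 0.11, for Dlg4 in TDP-15 against TDP-PBS, where the log2 difference was −0.10 (95% confidence interval −0.22 to 0.02). For Nrgn the difference from TDP-PBS was −0.11 in TDP-10+12 (−0.29 to 0.06) and −0.02 in TDP-15 (−0.19 to 0.14). The least certain gene was Homer1, with intervals of −0.19 to 0.29 in TDP-10+12 and −0.30 to 0.17 in TDP-15. Against TDP-PBS the intervals of the 9 genes reached from −18.7% to 22.5%, and those of TDP-10+12 against TDP-15 from −16.3% to 27.2%, and the test does not show that the groups were alike.

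The change in TDP-PBS was also compared between the sexes. A genotype by sex interaction was called for 0 of the 9 genes and for 0 of all genes tested by edgeR's quasi-likelihood test. At an unadjusted p under 0.05 stood 0 of the 9 and 1196 of all genes. DESeq2 called 0 of the 9 genes as well. Nrgn fell by 0.89 in males and by 0.74 in females on the log2 scale (p of the difference 0.372 in the fit across all genes by edgeR). The smallest p was 0.1, for Dlgap1, at −0.37 in males and −0.16 in females.

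Variation from mouse to mouse was compared between the genes. Of the 36 pairs of the 9 genes, 21 had a Pearson correlation across the 49 mice, centred on group means, that passed a permutation test within groups after adjustment over the pairs, and 21 of these were positive. By Spearman's rho 19 passed. The median r was 0.37, and the other 15 pairs did not pass. The share of pairs that pass among all genes was not computed. Shank1 and Shank2 were closest (r = 0.83, rho = 0.83, permutation adjusted p = 9e-05 for both, and r = 0.79 without the 2 mice farthest from the median). Dlg4 and Nrgn followed (r = 0.69, rho = 0.69, permutation adjusted p = 9e-05 for both, r = 0.72 without 2 mice), and then Shank1 and Shank3 (r = 0.68, rho = 0.59, permutation adjusted p = 0.000144 and 9e-05, r = 0.61 without 2 mice). Shank1 and Shank2 thus rose and fell together from mouse to mouse although only Shank1 differed between TDP-PBS and ctrl-PBS by the test. Nlgn1 correlated positively with Dlgap1 (r = 0.44, rho = 0.42, permutation adjusted p = 0.0111 and 0.0129) and Dlg2 (r = 0.39, rho = 0.45, permutation adjusted p = 0.0111 and 0.0045). The lowest pairs were those of Nlgn1, which did not pass, with r = −0.29 to Nrgn (rho = −0.29), −0.29 to Dlg4 (rho = −0.29) and −0.27 to Homer1 (rho = −0.30), and permutation adjusted p = 0.0562, 0.0755 and 0.0755 by r and 0.0745, 0.0764 and 0.051 by rho. Without the 2 mice farthest from the median these were −0.36, −0.35 and −0.26. Without mouse 26 the first and second were −0.33 and −0.34 and passed (permutation adjusted p = 0.0366 for both). The 49 libraries differed in how their counts depended on transcript length, with slopes in log2 per doubling of length from −0.17, in mouse 26, to 0.07. They differed in dependence on GC content as well, with slopes in log2 per 10% of GC from −0.13 to 0.13. The longest coding transcripts hold 62.4% GC for Shank3, 61.4% for Shank1, 58.6% for Nrgn and 55.0% for Shank2. Dlgap1 has 50.9%, Dlg4 46.8%, Dlg2 44.3%, Nlgn1 38.9% and Homer1 36.9%. The part of length and GC content in the correlations was not tested.

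**Figure D4:**
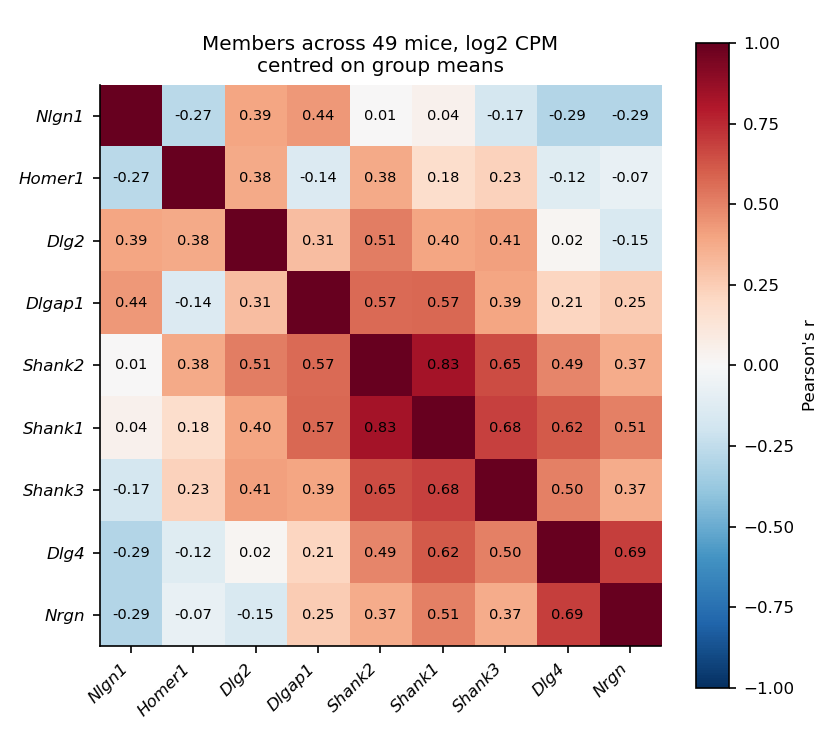
Pearson's r (colour, −1 to 1, and printed in each cell) of log2 CPM for each pair of the 9 genes across 49 mice, after centring on group means. The SHANK genes form the strongest block, at 0.65 to 0.83, and Nlgn1 is negative or near 0 with all but Dlg2 and Dlgap1.

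Gfap, the marker of reactive astrocytes, ranged from 181 to 1133 CPM among rNLS8 mice. Centred on group means over 32 rNLS8 mice, 0 of 9 genes correlated with it by Pearson's r or Spearman's rho after adjustment over the 9 (permutation within groups), with r from −0.34 for Nlgn1 to 0.45 for Homer1, the only one with an unadjusted p under 0.05. That of Homer1 (rho = 0.21, permutation p = 0.0424 and 0.245, adjusted p = 0.199 and 0.627) rested on the extreme mice, since r was 0.09 without the 2 farthest from the median of Gfap.

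For each of the 9 genes the gene whose centred log2 CPM was most like it across the 49 mice was noted, as a description. Homer1 was most like Pdp1 (r = 0.90), a phosphatase of the pyruvate dehydrogenase complex that was also lower in TDP-PBS, at −0.55. Shank1 was most like R3hdm2 (0.86), Nrgn like Ccdc92 (0.85), Dlg4 like Epn1 (0.83), Shank2 like Tnks1bp1 (0.83), Shank3 like Sipa1l1 (0.82), Dlgap1 like Chd5 (0.78), Nlgn1 like Sestd1 (0.74) and Dlg2 like Prickle2 (0.74). In TDP-PBS R3hdm2 (−0.21), Chd5 (−0.39) and Prickle2 (−0.12) were lower as well (edgeR quasi-likelihood adjusted p = 0.00171, 2.5e-08 and 0.0293), while Ccdc92 was higher, at 0.30 (adjusted p = 1.54e-06), where Nrgn was lower.

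The 9 genes differ widely in length, a property that was not used to choose them. Nrgn spans 8.25 kb and Dlg2 1973 kb. Over all genes tested, the share called lower in TDP-PBS was 18.7% for spans under 10 kb, 19.4% from 10 to 30 kb, 23.1% from 30 to 100 kb, 29.4% from 100 to 300 kb and 35.7% over 300 kb, and the median log2 fold change went from 0.00 in the first class to −0.09 in the last. Of the 4 members over 300 kb, Dlg2 and Dlgap1 fell and Shank2 and Nlgn1 did not pass. The largest fall among the 9, that of Nrgn, was in the shortest gene, whose class had the lowest share of genes called lower.

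**Figure D5:**
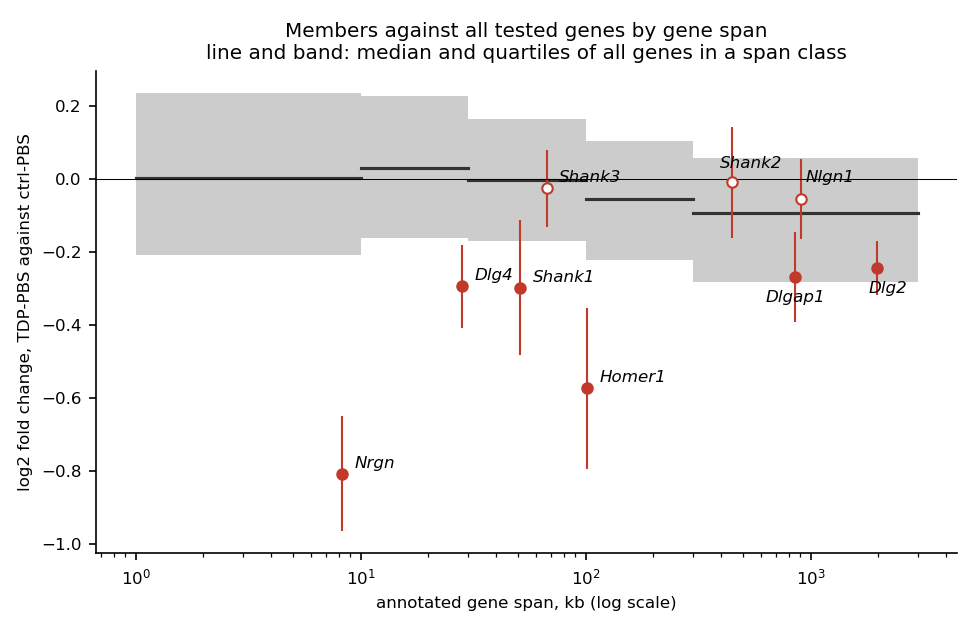
Log2 fold change in TDP-PBS against ctrl-PBS with its 95% confidence interval (vertical axis) against the annotated span of each gene in kb (horizontal axis, log scale), filled where the test passed. Grey bands and lines give the quartiles and median of all genes tested in 5 classes of span: Nrgn at 8.25 kb lies far below its band, while the 4 genes over 300 kb lie within theirs.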

How the data were processed

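RNA of about 30 mg of neocortex per mouse was sequenced as 100 bp paired-end reads. The deposited values are raw counts for each gene symbol and mouse, not normalized, which the authors made from alignments to GRCm38.p6. The submitters' processing notes name HISAT, HISAT2, Bowtie, Bowtie2, RSEM and mm10. Annotation and strand setting are not given in the sources used here.

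Groups came from the sample labels. The table's 49 columns were all mapped. No 2 libraries of a group were copies (smallest chi-squared per degree of freedom 7.77). Low genes were removed with filterByExpr (group-wise, minimum count 10, minimum total 15). After TMM scaling, a single model of all 49 mice with the group as its only term was tested two-sided by edgeR quasi-likelihood, glmQLFit followed by glmQLFTest (edgeR 4.0.16, R 4.3.3). Genes with an adjusted p under 0.05 over 18220 genes were called. Standard errors were derived from the F statistic. log2 CPM used a prior count of 2 and permutation tests 100000 resamples, so the smallest p they can give is 1e-05. The steps were tested on simulated data of TDP-PBS against ctrl-PBS, with 18047 genes tested. Of 67 changes of 0.25 in log2, 46.3% were recovered, and of 67 changes of 0.5, 91%. The changed genes were drawn only from those with higher counts, so these shares do not cover weakly expressed genes. Depth limits precision as given by the floor of 3 counts, which covers counting error only.

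The genes and lists were chosen with earlier results of these data known. Named from each list were at most 3 higher and 3 lower genes with the smallest p in TDP-PBS. Some genes that this rule names are not reported here. Pairs named were the 3 highest and the 3 lowest. Alternatives were upper-quartile normalization, size factors of DESeq2, omitting the filter, sex as a covariate, each sex alone, only the 2 groups compared, DESeq2 1.42.0, limma-voom with quality weights (limma 3.58.1), each mouse left out in turn, and, for relations, DESeq2's vst values or centring on group and sex. Those added after seeing the data left out libraries high in choroid plexus or olfactory bulb markers or mouse 26, added GC and length slopes as covariates, or scaled to the neuron markers. Sequences, positions and spans are from RefSeq on GRCm38.p6, and transcript lengths and overlaps from GENCODE vM21. A planned count of UG repeats was not run, as it needs a genome sequence. Figures were drawn with matplotlib 3.10.9.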

Additional observations from a re-analysis of the deposited data

Results flagged for a closer look

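Of 18 combinations of a gene and a group of 10 mice, 2 held a mouse whose gap to the nearest other was too wide for the range of its group by Dixon's criterion at 95% (0.466 for 10 mice). Chance gives about 1 in 20 groups. For Shank3, TDP-PBS mouse 26 had 249 CPM, and the next lowest mouse 341 CPM. For Homer1, TDP-10+12 mouse 301 had 85.8 CPM, and the next highest mouse 63.9 CPM. Mouse 26 was 1 of the 4 libraries high in choroid plexus markers (1264 CPM), and mouse 301 had the highest Gfap of all mice (1133 CPM). Their part in these values was not tested.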

How the results depend on the processing

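Leaving out scaling to the neuron markers and single-sex fits, the alternatives changed none of the 9 genes' calls against ctrl-PBS. Leave-one-out fits changed 1 call, that of Shank3 in TDP-15 (−0.13 without mouse 59). Between rNLS8 groups 0 of 351 values changed their call in 13 settings. Counts at an unadjusted p under 0.05 there did not exceed 1 of 9 in any setting. No paired analysis was made, as every mouse is a separate animal with its own number. The paper states that littermates were randomized to the cohorts, but the labels give no litter, so litter could not be modelled.

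In males alone, 3 of the 9 genes were called in TDP-10+12, all lower, against 6 in both sexes. The share of all genes called lower there was 7.97% in males alone and 20% in both sexes. In females alone and in males alone, 5 surrounding genes were higher in TDP-PBS against 8 in both sexes. Of all genes, 3010 of 18623 were higher there in females, 2261 of 18540 in males and 3996 of 18220 in both sexes. Fewer mice entered these fits. Shank1 was not called in TDP-PBS in either sex alone (−0.19 in females, −0.37 in males), nor Dlgap1 in females (−0.15), nor, in males, Shank1 in TDP-10+12 and TDP-15 (−0.22 and −0.35) and Dlg2 and Homer1 in TDP-10+12 (−0.17 and −0.33).

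Scaling to the neuron markers turned 39 lower and 8 higher surrounding genes into 11 lower and 40 higher. This follows from its construction, since it moved the median of all genes by over 0.1. The signs of Dlg2 (0.028), Shank2 (0.25), Shank3 (0.24) and Nlgn1 (0.21) turned in TDP-PBS, those of Dlg2 (0.078), Shank1 (0.024), Shank2 (0.28) and Shank3 (0.25) in TDP-10+12, and those of Shank2 (0.19), Shank3 (0.15) and Nlgn1 (0.22) in TDP-15. Nlgn1 was also called in TDP-10+12 (0.33).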
